A study of Papio hamadryas with 4 samples.

Results

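Skeletal muscle genes were examined in kidney biopsies of baboons as a check for muscle in the tissue sampled. The list holds 41 genes of the contractile apparatus and the energy supply of skeletal muscle, of 18774 genes with a probe on the array. Of these, 40 had at least 1 probe carrying the gene's symbol, 52 probes in all, and ACTA1, the skeletal alpha-actin, is named only, since its probe is not identified in the annotation used. The members were divided by their textbook use into 7 slow fibre genes, 12 fast fibre genes and 21 with a probe that both fibre types share or that serve metabolism. They were chosen by measured values, since the list was drawn up with the intensities and ratios of these same arrays known, several members having stood out in 1 sample. Every difference below is therefore a description of 4 samples and carries no test.

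The samples were kidney biopsies of Papio hamadryas, an Old World monkey, hybridised to an Illumina bead array that carries probes for human genes. Animals had a normal SLC (NSLC) or a high SLC (HSLC) phenotype, an abbreviation that the labels do not spell out, and each phenotype was biopsied after a low sodium and after a high sodium diet, both kept up for 6 weeks. This gives 4 groups with 1 array each: NSLC on low sodium, NSLC on high sodium, HSLC on low sodium and HSLC on high sodium. Age, the order of the diets, the number of animals per array and whether RNA was pooled were not given in the sources used, and with 1 array a group no value has a replicate error. Because every group is 1 array, phenotype, diet and the individual biopsy cannot be told apart.

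Skeletal muscle contracts when calcium released from the sarcoplasmic reticulum binds troponin on the thin filament and lets myosin of the thick filament pull on actin. Slow fibres, which are oxidative and fatigue-resistant, and fast fibres, which use more glycolysis, build this machinery from different genes for the myosin heavy and light chains and for troponin C, T and I. Myoglobin stores oxygen in muscle, and muscle creatine kinase buffers its ATP.

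A probe was called detected on an array when its deposited intensity, in arbitrary units, lay above the median of all probes there. That median was 72.1 for the HSLC low sodium array and 77.7 for the NSLC low sodium array, and on high sodium it was 79.5 for NSLC and 68.2 for HSLC. Of the 40 members, 37 were detected in HSLC on low sodium, 29 in NSLC on low sodium and 19 in each high sodium sample. Among all genes the shares were nearly level, at 68.5%, 68.2%, 69.5% and 69% in the same order, against 92.5%, 72.5%, 47.5% and 47.5% of the members. The intensities of the 40 member probes summed on low sodium to 29164 in HSLC and 5515 in NSLC, and on high sodium to 4603 in NSLC and 3990 in HSLC. In bulk tissue, a change in the number of muscle cells and a change in the RNA per cell cannot be told apart.

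**Figure D1:**
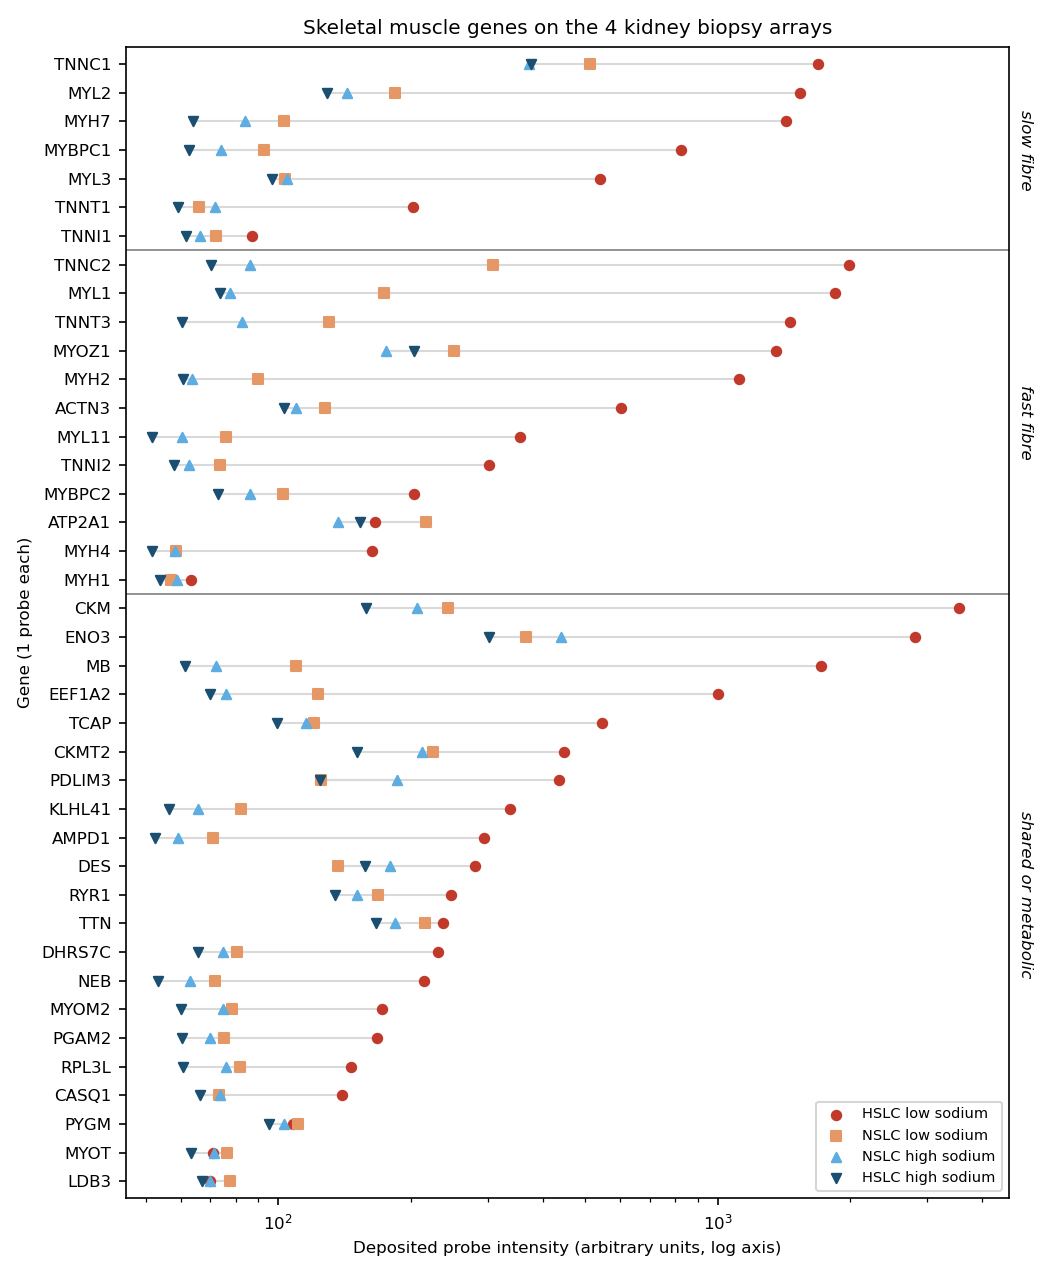
Deposited intensity (log axis, arbitrary units) of the probe that stands for each of 40 members in the 4 samples, by fibre class. Most genes show 1 high point, HSLC on low sodium, and 3 lower points; TNNC2 in NSLC on low sodium (307) stands clear of both high sodium samples (86.4 and 70.4).

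The slow fibre genes stood highest in 1 sample. In what follows, the 4 intensities of a gene are always given in the order HSLC low sodium, NSLC low sodium, NSLC high sodium and HSLC high sodium. MYH7, the slow (beta) myosin heavy chain that is also the main myosin of the adult human ventricle, read 1431, 103, 83.9 and 64.1. MYL2, the regulatory light chain of slow and ventricular myosin, read 1540, 184, 144 and 129. MYL3, the matching essential light chain, read 540.5, 104, 105 and 96.9. In all 3 genes the HSLC low sodium sample lay far above the others, and for MYL3 the other samples lay close together.

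TNNC1, the calcium-binding troponin of slow and cardiac muscle, read 1689, 511, 373 and 376. Its intensity in both high sodium samples was well above the array median, so this probe had a signal in biopsies where MYH7 was at or near the limit of detection. MYBPC1, slow myosin-binding protein C, read 826, 93.0, 74.0 and 62.6 on its brightest probe. Another MYBPC1 probe read 182, 80.0, 81.6 and 72.1, again highest in HSLC on low sodium but with no gap between the NSLC samples, and the last MYBPC1 probe was not above the median of any array.

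TNNT1, the slow troponin that binds tropomyosin, read 202, 66.0, 71.6 and 59.1 and was detected in HSLC on low sodium alone. TNNI1, the slow inhibitory troponin, read 87.1, 72.2, 66.3 and 61.8. It too was detected in that sample alone, not far above the array median of 72.1.

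The fast fibre genes had the same high sample. Some of them also stood out in NSLC on low sodium, as the slow gene TNNC1 did (511, against 373 and 376 on high sodium). TNNC2, the fast troponin C, read 1989, 307, 86.4 and 70.4. MYL1, an essential light chain of fast myosin, read 1849, 174, 77.8 and 73.6. TNNT3, the fast tropomyosin-binding troponin, read 1457, 131, 82.8 and 60.2. In each of these 3 genes the samples fell in 1 order, with NSLC on low sodium second and both high sodium samples close to the median of their array.

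MYH2, the IIa myosin heavy chain of fast oxidative fibres, read 1120, 90.0, 63.7 and 60.8. MYOZ1, a calcineurin-binding protein of the fast Z-disc, read 1358, 252, 176 and 203. ACTN3, the alpha-actinin that crosslinks actin at the Z-disc of fast fibres, read 601, 128, 110 and 103. MYOZ1 was thus above the median on all arrays, while MYH2 was detected only in the samples on low sodium.

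Fainter fast genes were MYL11, the regulatory light chain of fast myosin, at 354, 76.1, 60.5 and 51.5, and TNNI2, the fast inhibitory troponin, at 303, 73.6, 62.7 and 57.8. MYBPC2, fast myosin-binding protein C, read 204, 103, 86.2 and 73.0. MYH4, the IIb heavy chain of the fastest fibres in rodents, read 164, 58.5, 58.2 and 51.7. MYL11, TNNI2 and MYH4 were above the median of the HSLC low sodium array and of no other. MYH1, the IIx heavy chain, read 63.5, 57.2, 58.8 and 53.9 and was below the median of all 4 arrays.

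ATP2A1, the calcium pump of the fast sarcoplasmic reticulum, was the only one of the 37 members detected in HSLC on low sodium whose normalized level was not highest there. Its brightest probe read 166, 217, 137 and 154, highest in NSLC on low sodium. Its other probes read 150, 75.5, 71.4 and 63.9, and 135, 65.9, 60.7 and 53.2, with HSLC on low sodium alone above the array median. The brightest probe of ATP2A1, which stands for the gene in the counts below, therefore gives a different order of samples from the other 2.

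Among the shared and metabolic genes, CKM, muscle creatine kinase, read 3538, 243, 207 and 159. ENO3, the muscle enolase of glycolysis, read 2815, 366, 440 and 302. MB, myoglobin, read 1717, 110, 72.001 and 61.3 on 1 probe, and its 2 other probes were below the median of all 4 arrays. ENO3 was the only one of these 3 whose lower samples did not put NSLC on low sodium second in deposited intensity.

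EEF1A2, a translation elongation factor of muscle and neurons, read 1001, 123, 76.0 and 70.0. TCAP, the titin cap of the Z-disc, read 546, 121, 115 and 99.5. CKMT2, the mitochondrial creatine kinase of striated muscle, read 447, 225, 212 and 151. CKMT2 was above the median on all arrays, so that HSLC on low sodium exceeded a signal that the other samples had as well.

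Several lower signals were present in HSLC on low sodium and close to the array median elsewhere. KLHL41, a kelch protein that steadies the sarcomere, read 336, 82.1, 65.6 and 56.4. AMPD1, muscle AMP deaminase, read 294, 70.9, 59.2 and 52.5. DHRS7C, an oxidoreductase of the muscle sarcoplasmic reticulum, read 231, 80.8, 74.9 and 65.8. Of these 3, AMPD1 was detected in HSLC on low sodium alone, and KLHL41 and DHRS7C also just above the median in NSLC on low sodium.

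NEB, nebulin, the ruler of the thin filament, read 215, 71.7, 62.9 and 53.3. MYOM2, an M-band protein, read 172, 78.6, 74.8 and 60.1. PGAM2, the muscle phosphoglycerate mutase, read 168, 75.1, 70.0 and 60.4. All 3 were highest in HSLC on low sodium, where alone NEB and PGAM2 were detected. RPL3L, a ribosomal protein that replaces RPL3 in striated muscle, read 146, 81.7, 76.2 and 60.8, and CASQ1, the calcium store protein of the fast sarcoplasmic reticulum, read 140, 73.4, 73.7 and 66.5.

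PDLIM3, a Z-disc adaptor, and DES, desmin, the intermediate filament of all muscle, were among the genes with NSLC higher on high than on low sodium. PDLIM3 read 436, 125, 187 and 124. DES read 280, 137, 180 and 158. In both, NSLC on high sodium and not NSLC on low sodium was second in deposited intensity. Both genes are also made in smooth muscle, whose 9 fixed markers, DES among them, summed to 5892, 6092, 17189 and 10180 in the same order of samples; the part of smooth muscle in these values was not tested.

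RYR1, the calcium release channel of skeletal muscle, read 248, 169, 151 and 135, highest again in HSLC on low sodium but less than 2-fold above the others. The remaining members showed smaller gaps or none. TTN, titin, read 237, 216, 184 and 167 on its brightest probe, and its 3 other probes read between 61.2 and 90.2 on every array. PYGM, muscle glycogen phosphorylase, read 108, 111, 103 and 95.2, with the low sodium samples in the other order before normalization. LDB3, a Z-disc protein, read 69.9, 77.8, 69.9 and 67.0 and was detected in NSLC on low sodium alone. MYOT, myotilin of the Z-disc, read 71.1, 76.3, 71.5 and 63.4 and was below the median of all 4 arrays. How well the human probes match baboon sequence was not checked, so a low reading, here or for any other gene, does not show that a transcript was lacking.

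On the low sodium diet, muscle genes of every class were higher in HSLC than in NSLC. Ratios were taken as log2 differences after background correction and quantile normalization, and a gene was counted when it was at least 2-fold apart, a rule of size and not a test. Of 28 members detected on both arrays, 23 were 2-fold or more higher in HSLC and 0 lower, against 0.283% and 0.0486% of 12358 genes. That contrast was used to choose the members, so nothing is read from the difference. The median log2 ratio of the members was 2.37, where that of all genes was 0.00, and 27 of the 28 lay above 0, as did 6276 of the 12358 genes.

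By class, all 5 measured slow fibre members passed 2-fold, with a median of 3.12 and a range of 1.63 to 3.98. MYH7 was 15.7-fold higher and MYBPC1 10.1-fold. The 8 measured fast fibre members ranged from -0.41 to 3.84 with a median of 2.53, and 7 passed, MYH2 14.3-fold, TNNT3 12.4-fold and MYL1 11.1-fold among them. The 15 shared or metabolic members ran from 0.04 to 4.13 with a median of 1.67, and 11 passed, led by MB at 17.5-fold and CKM at 14.4-fold. CKMT2 (1.005) and DES (1.14) were close to the limit and fell short of 2-fold with cyclic loess, and RPL3L (0.97) fell just short as it was.

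A further 10 members were detected on 1 of the 2 low sodium arrays only, so their ratio has only a bound. MYL11 was at least 5.20-fold higher in HSLC, TNNI2 at least 4.38-fold and AMPD1 at least 4.27-fold. NEB, TNNT1, PGAM2 and MYH4 were higher by at least 3.09-fold, 2.90-fold, 2.40-fold and 2.33-fold. These 7 were the 7 genes, of 504 detected in HSLC only, whose bound reached 2-fold, a share of 1.39%. They entered through detection on the array where members had stood out, so an upward bound follows in part from their choice. Nothing is read from that share. CASQ1 was at least 1.97-fold and TNNI1 at least 1.21-fold higher, while LDB3 was detected in NSLC alone, at its limit.

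The probes of a gene did not always share a ratio. MYL1 was at 3.48, 2.81 and 0.25 on its 3 probes, MYBPC1 at 3.33 and 1.32 on its detected probes, and ENO3 at 2.86 and 0.15. The ATP2A1 probe that stands for the gene was at -0.41, while its other probes, detected in HSLC only, were at least 2.12-fold and 1.88-fold higher there. The other MB probes were detected on no array and carry no ratio, and of the other TTN probes 1 was detected, at 0.04.

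**Figure D2:**
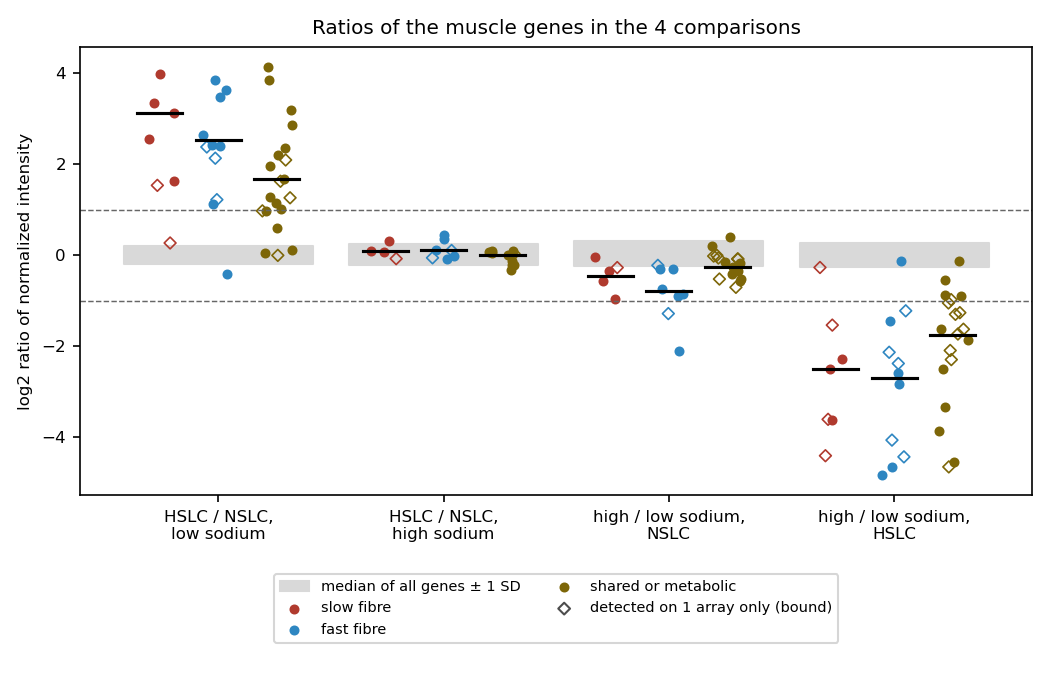
Log2 ratios of the members in each of 4 comparisons, by fibre class: filled circles were detected on both arrays, open diamonds on 1 array only and are bounds, black bars are medians of the filled circles, grey bands are the median of all genes ± 1 SD over genes, and dashed lines mark 2-fold. The first and the last comparison, which both use the HSLC low sodium array, hold nearly all points beyond 2-fold, and on high sodium the members lie between -0.31 and 0.44.

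On the high sodium diet, no member was 2-fold apart between the phenotypes. Of 17 members detected on both high sodium arrays, 0 passed 2-fold in either direction, where 0.0959% of all genes were higher and 0.352% lower in HSLC. The ratios of HSLC over NSLC ran from -0.31 for PDLIM3 to 0.44 for MYOZ1. The median was 0.06, against 0.02 for all genes, but it was -0.09 against -0.14 when arrays were left unnormalized, and -0.02 against -0.06 when only their medians were matched. The slow troponin C gene TNNC1 was at 0.30 and its fast counterpart TNNC2 at -0.08 (0.07 with cyclic loess). The deposited intensities of TNNC1 were nearly equal, at 373 in NSLC and 376 in HSLC, so its ratio arose in the normalization.

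Within NSLC, 1 of 19 measured members was 2-fold apart between the diets. Of the 19, 17 lay below 0, as did 43.5% of all genes, with a median of -0.35 where all genes had 0.04. Without normalization 15 lay below 0, at a median of -0.22 against 0.28 for all genes, and the exceptions then included MYL3 and ENO3. TNNC2, at -2.11, was that member, against 0.156% of all genes called lower and 0.509% higher. MYL1 was detected on low sodium only and at least 2.43-fold lower on high sodium, the 1 gene of 606 (0.165%) with such a bound.

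The NSLC diet ratios of the fast fibre genes had the lowest class median. The 6 measured fast members ran from -2.11 to -0.30 with a median of -0.79, the 4 slow members from -0.96 for TNNC1 to -0.04 for MYL3 with a median of -0.46, and the 9 shared or metabolic members from -0.57 for CKM to 0.41 for PDLIM3 with a median of -0.25. The classes overlap in range, and MYOZ1 (-0.84) and ATP2A1 (-0.90, on the 1 probe of 3 that was detected in NSLC) are among the fast genes that set the median. With no replicate, a difference between classes of this size has no error to be read against.

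Within HSLC, the ratios of high over low sodium were large and went 1 way. All 19 measured members lay below 0, as did 47.3% of all genes, with a median of -2.49 where all genes had 0.01. Of the 19, 14 were 2-fold or more lower, against 0.232% of 12481 genes, while 0 were higher, against 0.529%. TNNC2 stood at -4.83, MYL1 at -4.65, CKM at -4.54, EEF1A2 at -3.86 and MYL2 at -3.61. Another 18 members were detected on low sodium only, and 16 of them had a bound of 2-fold or more, as did 4.2% of the 381 genes detected in HSLC on low and not on high sodium; 0 members had such a bound upward, as did 0.207% of the genes detected on high sodium only. MB was at least 25.1-fold lower on high sodium, TNNT3 at least 21.5-fold, MYH7 at least 21.1-fold and MYH2 at least 16.7-fold. This comparison and the low sodium comparison of the phenotypes share the HSLC low sodium array, so they are not 2 separate observations. The members were chosen with this contrast known too, so nothing is read from the shares set beside their counts and bounds.

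The median HSLC diet ratio was -2.51 over 3 slow members, -2.70 over 6 fast members and -1.74 over 10 shared or metabolic members. Members short of 2-fold were RYR1 (-0.90), DES (-0.87), TTN (-0.55), ATP2A1 (-0.13) and PYGM (-0.12). The HSLC diet ratio minus the NSLC diet ratio had a median of -1.99 over 17 members detected on all 4 arrays, and 13 were at -1 or below, against 0.285% of all genes, with 0 at 1 or above, against 0.0672%. Here too the members were chosen with the values known, so nothing is read from these shares. CKM differed most, at -3.97, and ATP2A1 was at 0.77 on its brightest probe. Its other probes were detected in HSLC on low sodium only and give no such difference, and the mean over its 3 probes, which takes in values below the array median, was at -0.49.

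The 4 samples fell in a common order for most members. In 30 of the 37 members detected in HSLC on low sodium, the normalized level was highest there, second in NSLC on low sodium and lower in both high sodium samples, an order that 7.73% of all genes detected in HSLC on low sodium shared. For 6 of the 30 (MYL11, TNNI2, TNNI1, AMPD1, NEB and PGAM2) the 3 lower samples were all below the array median, where values have no reliable order. Of the 28 members detected on both low sodium arrays 24 had the order, against 7.71% of such genes. The exceptions among the 37 were MYL3, TNNT1, MYH4, ATP2A1, PDLIM3, DES and CASQ1. In unnormalized and in median-scaled data 29 of the 37 had that order, against 2.93% and 4.17% of all genes, and ENO3 joined the exceptions. Of the 37, 29 were 2-fold or more above each of the other 3 samples in HSLC on low sodium, against 0.272% of all genes detected there. The members were chosen with these values known, so a first place of HSLC on low sodium follows in part from the choice. That place was held in 36 of the 37 members, against 2146 (16.7%) of the 12862 genes detected there. Of those 2146 genes, 994 had the full order. The shares of all genes are therefore not a like reference, and nothing is read from the differences.

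How much of the pattern reached the NSLC low sodium sample was described on the deposited intensities, probe by probe, so that the brightness of a probe cancels. The mean of both high sodium arrays was subtracted, and the NSLC low sodium remainder was given as a percent of the HSLC low sodium remainder. This was done for the 20 members at least 4 times as bright in HSLC on low sodium as the high sodium mean. The median was 4.27%, the range -0.19% to 11.98%, and 19 of the 20 lay above 0. Subtraction on deposited intensities does not cancel a difference in background between arrays. Their medians were 77.7 for NSLC on low sodium, and 79.5 for NSLC and 68.2 for HSLC on high sodium. The median of NSLC on low sodium lay above the middle of the high sodium medians. A probe without signal therefore tends to leave a remainder above 0. The count above 0 was not set beside all genes, and nothing is read from it. A background difference weighs most on small NSLC remainders, such as 2.92 for MYL3 and 13.3 for TCAP. MYL11, TNNI2 and AMPD1 were below the array median in all samples but HSLC on low sodium, so their percentages rest on signal near background, and without these 3 genes the median was 3.41%. On normalized intensities the median was 3.66%, with a range of -0.07% to 16.9%.

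The fast class had the highest median percentage in NSLC on low sodium, but the classes overlapped. The 8 fast members ran from 2.63% for MYH2 to 11.98% for TNNC2, with a median of 5.42%, or 4.797% over the 6 that were detected in NSLC on low sodium. Slow members, 5 in number, had a median of 3.26% and ran from 0.66% for MYL3 to 10.4% for TNNC1. Of the 7 shared or metabolic members, with a median of 3.04%, KLHL41 was highest at 7.66% and ENO3 lowest. On normalized intensities the medians were 4.25%, 2.46% and 3.37%, and TNNC1 (16.9%) was then above TNNC2 (12.9%). The high sodium arrays differed from each other by 0.22% to 5.63% of the HSLC remainder, depending on the gene, so percentages of a few points are near the spread of the reference.

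**Figure D3:**
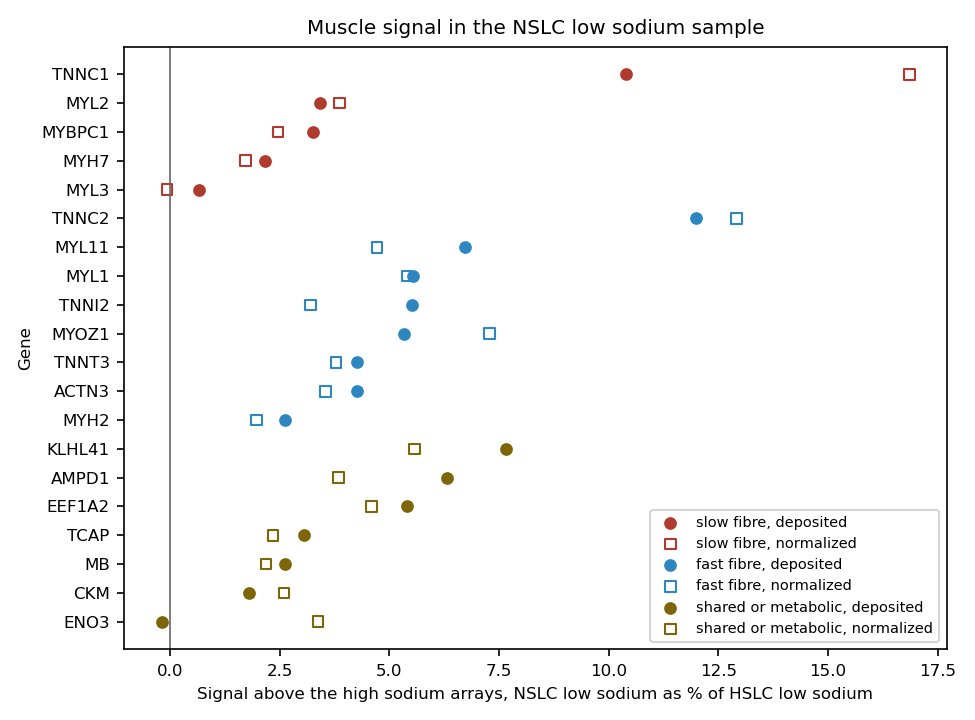
For 20 members, the NSLC low sodium signal above the mean of the high sodium arrays as a percent of the HSLC low sodium signal above it, on deposited (circles) and normalized (squares) intensities. TNNC2 (11.98% and 12.9%) and TNNC1 (10.4% and 16.9%) stand apart from the other genes, which lie between -0.19% and 7.66% on deposited intensities.

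Other genes of striated muscle are given as values only, since the members were picked on their ratios in these arrays and a wider gap among them follows from that choice. Of 26 sarcomere and Z-disc genes with a probe, 13 were measured on both low sodium arrays. Of these 13, 12 were above 0 in HSLC over NSLC, as were 6276 of 12358 genes, and the median was 0.49. MYBPH, a relative of myosin-binding protein C (1.47), NRAP, an actin-binding protein of the forming myofibril (1.45), and SMYD1, a methyltransferase of muscle (1.005), passed 2-fold. SMYD1 read 151, 82.4, 77.0 and 69.2. Tropomyosins TPM1 and TPM2, bright in all samples and not specific to skeletal muscle, were at 0.86 and 0.85. KLHL40, a kelch relative of KLHL41 (0.00), the ubiquitin ligase TRIM54 (0.03) and LMOD3, a leiomodin of the thin filament (-0.16), had the smallest ratios. On low sodium, KLHL40 (74.4 in HSLC and 79.7 in NSLC) and TRIM54 (77.8 and 81.7) read close to the array median, so their ratios say little.

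Of the excitation-contraction and membrane genes, 17 of 23 were measured, with a median of 0.14, and 1 passed 2-fold. That was HRC, a calcium-binding protein of the sarcoplasmic reticulum, which read 243, 88.8, 81.1 and 70.4 and was at 1.61. SLN, sarcolipin, the small inhibitor of the calcium pump, read 5655, 2937, 4594 and 3735. It was bright in all 4 samples, and its ratio was 0.91. SGCA, alpha-sarcoglycan (-0.00), DMD, dystrophin (0.01), and TMEM38A, a cation channel of the reticulum (0.08), had the smallest ratios. TMEM38A read 85.2 in HSLC and 85.8 in NSLC on low sodium, near the array median.

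Other genes of muscle energy metabolism had a median of 0.02 over 13 measured, with 0 at 2-fold. COX6A2, a muscle subunit of cytochrome oxidase, was highest at 0.43, and ALDOA, the aldolase of muscle and many other tissues, was at 0.39. The smallest ratios were those of COX7A1, another muscle subunit of that oxidase (-0.02), LDHB, a lactate dehydrogenase subunit (0.02), and GOT1, an aspartate aminotransferase (-0.03). LDHB read 87.5 in HSLC and 92.0 in NSLC on low sodium, near the array median. CA3, a carbonic anhydrase abundant in slow fibres, read 65.4, 75.03, 69.2 and 62.1 and was not above the median of any array. Myogenic factors and developmental myosins had a median of 0.02 over 7 measured, with 0 at 2-fold. MYOD1 (-0.04) and MYF5 (-0.03), which commit cells to the muscle lineage, and MYL4, an embryonic and atrial light chain (0.02), had the smallest ratios. MYOD1, MYF5 and MYL4 read between 77.2 and 90.5 on low sodium, close to the array medians of 72.1 in HSLC and 77.7 in NSLC. Their ratios near 0 do not show that a transcript was unchanged. The embryonic and perinatal heavy chains MYH3 and MYH8 were below the median of all 4 arrays.

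Beyond the members, 6 of 12825 genes detected in HSLC on low sodium were also 2-fold or more above every other sample there. In order of their lowest ratio these were TMOD4, the tropomodulin of skeletal muscle (1.81), HRC (1.61), NRAP (1.45), MYBPH (1.41), PDLIM7, a PDZ and LIM domain protein related to PDLIM3 (1.22), and SMYD1 (1.005). TMOD4 read 359, 109, 106 and 105. PDLIM7 read 830, 285, 355 and 391.5, with NSLC on low sodium the lowest. Of the 6, 4 came from the lists of other muscle genes and 2 from no list.

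**Figure D4:**
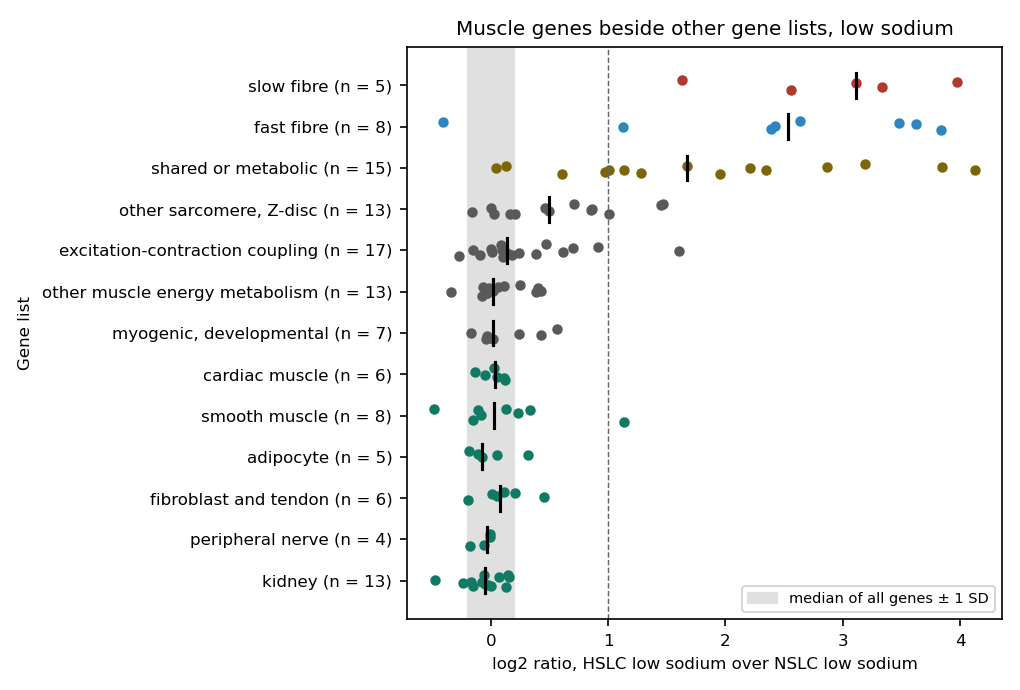
Log2 ratios of HSLC over NSLC on low sodium for the 3 member classes, 4 lists of other muscle genes and 6 lists of cell type markers; points are genes detected on both arrays, black bars are medians, the grey band is the median of all genes ± 1 SD, and the dashed line marks 2-fold. Member classes have medians of 1.67 to 3.12, and every other list a median of 0.49 or less; the 1 smooth muscle point past 2-fold is DES, which is also a member.

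Markers of the other tissues a biopsy could hold had medians between -0.07 and 0.08 across the 2 low sodium samples. Their part in the members' values was not tested beyond the values given here. Cardiac markers summed to 722, 760, 753 and 686 in the usual order of samples. These sums are over 8 probes that read between 59.5 and 148 on every array, so they hold much background. The 6 measured on low sodium ran from -0.14 to 0.12. ACTC1, the cardiac alpha-actin, read 66.0, 69.9, 63.6 and 59.5 and was below the median of every array, and TNNI3, the cardiac inhibitory troponin, read 75.2, 83.3, 86.0 and 76.0. Adipocyte markers summed to 1012, 1042, 1115 and 808, with LEP, leptin, below the median of all 4 arrays and FABP4, a fatty acid carrier, at 167, 141, 210 and 111. Nerve markers summed to 1715, 1715, 2322 and 1878, of which MBP, myelin basic protein, alone gave 1378, 1340, 1975 and 1554.

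Smooth muscle markers had a median of 0.02 between the low sodium samples. TAGLN, an actin-binding protein, read 2718, 2882, 7112 and 4865, and MYH11, the smooth muscle myosin heavy chain, read 850, 727, 3071 and 1481, both higher on high sodium. Not all markers of the list were. Ratios of high over low sodium for the 8 measured ran from -0.44 to 2.44 in NSLC. In HSLC the 8 ran from -0.87, for DES, to 1.27. Fibroblast and tendon markers had a median of 0.08 and summed to 4948, 3845, 12036 and 10897, of which DCN, decorin, alone gave 3625, 2620, 8793 and 7999. The median ratio of high over low sodium in this list was 0.05 over 7 measured in NSLC and 0.65 over 6 in HSLC. TNMD, tenomodulin of tendon, read 105, 108, 99.6 and 107.

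Kidney markers were present in every biopsy. Of 13 with a probe, 13 were detected in each low sodium sample, 12 in NSLC on high sodium and 11 in HSLC on high sodium. Among all genes the shares detected were 68.5% in HSLC and 68.2% in NSLC on low sodium, and 69.5% in NSLC and 69% in HSLC on high sodium. NPHS1, KL and CALB1 read close to the array median, at 78.6, 76.5 and 72.2 in HSLC on low sodium. The 13 markers summed to 22681, 22219, 25415 and 17122, most of it from AQP1. AQP1, the water channel of the proximal tubule and thin limb, read 17057, 16577, 17906 and 13114, and LRP2, megalin, read 1948, 1700, 3010 and 1573. The median ratio of the 13 between the low sodium samples was -0.05, with a range of -0.48 to 0.16. The other comparisons were less even. High over low sodium in HSLC had a median of -0.55 over 11 markers, from -1.02 to 0.34. HSLC over NSLC on high sodium had a median of -0.54 over 11, from -1.10 to 0.13. High over low sodium in NSLC had a median of -0.07 over 12, from -1.10 to 1.11.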

How the data were processed

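Total RNA of kidney biopsies was extracted with Trizol, cleaned on RNeasy columns and labelled with the TotalPrep kit and Cy3, per the labels' protocols. The deposited files hold linear probe intensity for 48702 probes on each of 4 arrays; the authors used BeadStudio, per the submitters' processing notes, and its version is not given. Nothing in the sources used here states how background or normalization was handled, or whether RNA was pooled. A second deposited intensity table, the series matrix, has equal means within each phenotype (215 and 192), by a step that is not stated; it served as an alternative.

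After 1 probe listed at 0 was left out, intensities were corrected with normexp (offset of 50), quantile-normalized and taken to log2 (limma 3.58.1, R 4.3.3). This offset compresses ratios of dim probes. The platform annotation gave 1 symbol for 23687 probes, several for 35 and none for 24979. The probe with the highest mean signal stood for a gene. Where 1 of 2 arrays lacked detection, the ratio was bounded with that array at the higher of its median and the probe's own value. The number of arrays limits the precision, and there is no replicate spread and no test, nor can a replicate be left out. For judging alternatives, the SD of all genes' ratios (0.20 to 0.28) stood in for a spread. The steps were tested on simulated data.

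The members, lists, size rule and alternatives were chosen with earlier results of these data known. All members with a probe are named. From other muscle lists, those past 2-fold in the low sodium comparison and up to 3 with the smallest ratio are named, then up to 4 bright markers per cell type and up to 12 genes with the members' pattern; further genes named from these lists (COX6A2, ALDOA, TPM1, TPM2, SLN, CA3, the myogenic genes and the markers LEP, ACTC1, TNNI3 and TNMD) were chosen after their values were seen.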

Additional observations from a re-analysis of the deposited data

How the results depend on the processing

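In the settings tried, no member called at 2-fold changed sign. The alternatives were cyclic loess, median scaling or no normalization, the series matrix, an offset of 16, averaging a gene's probes detected on any array, detection above the 75th percentile, no detection filter and 1.5-fold in place of 2-fold. Cyclic loess left DES and CKMT2 short of 2-fold in the low sodium comparison. Detection above the 75th percentile left 15 members at 2-fold or more there, and 19 detected in NSLC on low sodium, since fewer probes qualify. The count of members lower on high sodium in NSLC, 1 as reported, was 3 with the series matrix, 5 with an offset of 16, 0 above the 75th percentile, 2 with no filter and 5 at 1.5-fold. With no filter, 31 members were lower on high sodium in HSLC and 32 in the difference of diet ratios, since undetected probes then count; at 1.5-fold 1 member was higher in that difference. An offset of 16 widened the low sodium medians to 3.36 (slow), 2.76 (fast) and 2.28 (shared), and those of the HSLC diet ratio to -2.99, -3.04 and -2.03, as a smaller offset does by construction. The low sodium slow median was 2.56 with the mean over probes and with no filter and 2.37 above the 75th percentile, and the shared median 1.96 above it and 1.32 with no filter. Above the 75th percentile the slow median of the NSLC diet ratio was -0.76 and the fast median of HSLC over NSLC on high sodium 0.36; with no filter the fast NSLC diet median was -0.43. The percentages on normalized intensities, and the values limited to members detected in NSLC on low sodium, were added after the data were examined. No paired analysis was possible because each group has 1 array. Signal near an array's median limits what can be said of TNNI1, MYH1, LDB3, MYOT and the lower probes of MB and TTN. The same holds for KLHL40, TRIM54, TMEM38A, LDHB, MYOD1, MYF5 and MYL4.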
